A study of Saccharomyces cerevisiae with 21 samples.

Results

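Maps of Spo11 double-strand breaks (Spo11-DSBs) from *sae2*Δ *tel1*Δ cells were compared with maps from their *sae2*Δ counterpart, the pair of genotypes in this study that still carried *NDT80*. The comparison took every library labelled with either genotype, 11 of the 21 libraries in the series: 6 of *sae2*Δ and 5 of *sae2*Δ *tel1*Δ. Libraries that shared a replicate number were summed, which left 5 replicates of *sae2*Δ (numbered 1, 2, 3, 5 and 7) and 4 of *sae2*Δ *tel1*Δ, 9 of the 18 replicates with active Spo11. The maps were made by CC-seq, which purifies DNA ends that keep Spo11 covalently attached and reads the base at each end, from diploid *S. cerevisiae* cells collected 6 h into meiosis. Both strains, MJ315 (*sae2*Δ) and VG402 (*sae2*Δ *tel1*Δ), had the SK1 background and were MATa/alpha diploids homozygous for nuc1::LEU2, his4X::LEU2 and leu2::hisG, for the markers lys2, ura3 and arg4-nsp, and for ho::LYS2. The *sae2*Δ strain carried sae2Δ::KanMX6, and the *sae2*Δ *tel1*Δ strain carried sae2Δ::KanMX4 and tel1Δ::HphMX4. Each genotype was 1 strain, so strain and genotype cannot be told apart. Hotspot calling, ranks of strength and a test of interaction also used *sae2*Δ *ndt80*Δ (strain MJ962, 4 libraries) and *sae2*Δ *ndt80*Δ *tel1*Δ (strain MJ965, 5 libraries), again at 6 h and 1 strain each. The study's methods call the replicates biological and the labels give only their numbers, and p-values measure the spread between them.

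Spo11 is the topoisomerase-like protein that makes the breaks from which meiotic recombination starts, mostly in short regions called hotspots that lie in gene promoters. Without Sae2, Mre11 does not release Spo11 from the break ends, so breaks persist unresected and can be mapped at the base at which Spo11 cut. Tel1, the yeast counterpart of ATM, is a kinase that responds to breaks and restrains further breaks nearby, a behaviour known as DSB interference. Ndt80 is the transcription factor that drives cells out of meiotic prophase, so in these genotypes the end of the period of break formation was not blocked. The study reports that *sae2*Δ *tel1*Δ cells left prophase sooner than *sae2*Δ cells. Maps at 6 h can thus also differ in meiotic progress, and its part in the changes below was not tested.

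Signal was counted on both strands and expressed as HpM, the hits in a region scaled to a total of 1000000 nuclear reads outside the rDNA. A second scale, NormHpM, first subtracts the background seen in 49 long genes and then gives each hotspot as a share of all hotspot signal, scaled to the same total. Both scales are relative: a rise in one region and a loss of breaks everywhere else cannot be told apart. The hotspots were 3331 regions called in either of the *ndt80*Δ genotypes, covering 1003700 bp with a median length of 206 bp, so that their limits did not use the libraries compared here. A region could thus enter through the *ndt80*Δ genotype without Tel1 alone. Nuclear reads per library ranged from 1530684 to 8634134 in *sae2*Δ and from 3768002 to 5426685 in *sae2*Δ *tel1*Δ. As a check of the labels, the body of *TEL1* held 66 to 264 reads per *sae2*Δ library and 0 to 29 per *sae2*Δ *tel1*Δ library, while *SAE2* held at most 8 in either genotype. Those 8 reads, in *sae2*Δ library 7C, were 0.54 times the background expected over so short a gene. *SAE2* stood at no more than 0.095 times background in the other compared libraries.

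The genotypes differed in background. Hotspots took 70.4%, 80.0%, 69.6%, 74.3% and 74.2% of the reads in *sae2*Δ replicates 1, 2, 3, 5 and 7, and 65.1%, 62.0%, 58.5% and 56.4% in *sae2*Δ *tel1*Δ replicates 1 to 4. Background in the long genes averaged 17.1 ± 4.56 HpM per kb in *sae2*Δ (SD, n = 5) and 28.8 ± 5.49 in *sae2*Δ *tel1*Δ (SD, n = 4). Neither measure overlapped between the genotypes (exact permutation test, two-sided, p = 0.0159 for each, the smallest that 5 against 4 replicates allow). The main results are therefore given on both scales or with the scale named, and the part of background in them was not tested beyond that. The median hotspot log2 ratio was -0.40 when scaled by nuclear reads and -0.11 when scaled by reads in hotspots.

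Without Tel1, reads moved towards chromosomes I, III and VI, the 3 smallest. Chromosome III, the chromosome that bears the mating-type locus, rose the most. It held 32267, 31024, 32934, 33535 and 33385 HpM in the *sae2*Δ replicates and 60231, 53288, 51797 and 52356 HpM in the *sae2*Δ *tel1*Δ replicates. Every *sae2*Δ *tel1*Δ replicate was thus far above every *sae2*Δ replicate, and the means of 32629 ± 1024 (SD, n = 5) and 54418 ± 3924 (SD, n = 4) differed 1.67-fold. Chromosome I rose from 20910 ± 304 to 29519 ± 1437 HpM (1.41-fold), and chromosome VI from 28734 ± 534 to 38861 ± 2653 HpM (1.35-fold). On the NormHpM scale the same rises were 2.03-fold on chromosome III, 1.63-fold on I and 1.55-fold on VI.

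The change did not follow chromosome length alone. Chromosome IX, the next in length, fell from 31240 ± 565 to 29067 ± 1237 HpM (0.930-fold) and to 0.835 of the *sae2*Δ level in NormHpM, and V and VIII stood at 0.925 and 0.932 in NormHpM. Chromosome X, a chromosome of middle size, rose from 65967 ± 984 to 77045 ± 1094 HpM (1.17-fold), and its replicates did not overlap. Chromosome XII, which carries the rDNA, fell from 62956 ± 2397 to 49697 ± 3853 HpM (0.789-fold), chromosome XIV from 61598 ± 460 to 51464 ± 1699 (0.835-fold) and chromosome IV, the longest outside the rDNA, from 130622 ± 1126 to 112647 ± 1794 (0.862-fold). In NormHpM chromosome XII fell further, to 0.540 of the *sae2*Δ level, and XIV and IV fell to 0.718 and 0.808. In all, 12 of 16 chromosomes passed the exact permutation test in HpM after Benjamini-Hochberg adjustment (adjusted p = 0.0231 for the 11 whose replicates did not overlap and 0.0423 for XIII), 5 of them upward and 7 downward. With 1 replicate left out 11 to 13 passed, except that none did without *sae2*Δ *tel1*Δ replicate 2 or 3. In NormHpM all 16 passed (adjusted p between 0.0195 and 0.0476), though XIII and XV moved by under 3% of their level. Across the 16 chromosomes the log2 ratio in HpM correlated with log10 length at r = -0.757, and across the 13 without I, III and VI at r = -0.229 (Spearman's rho -0.49 and -0.06), all given as descriptions.

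**Figure D1:**
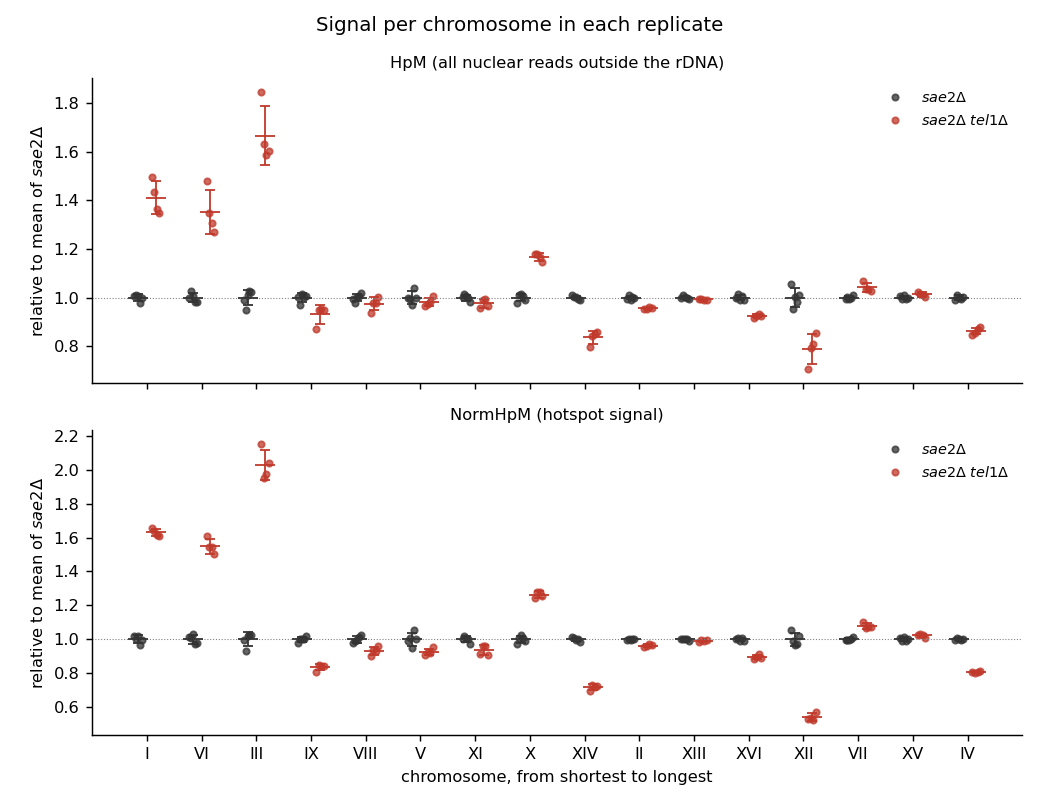
Signal on each of the 16 chromosomes, from shortest to longest, in every replicate relative to the *sae2*Δ mean, in HpM (top) and NormHpM (bottom), with points for replicates and bars for the mean and SD of each genotype. Mean ratios of chromosomes III, I and VI lie highest, at 1.67, 1.41 and 1.35 in HpM, that of X is 1.17, and that of XII lies lowest at 0.789.

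Within chromosomes, signal moved towards centromeres. Within 100 kb of the centromeres the *sae2*Δ replicates held 262752, 265053, 262508, 266382 and 264558 HpM and the *sae2*Δ *tel1*Δ replicates 339746, 327779, 321352 and 319787 HpM. The ranges were well apart, and the means rose from 264251 ± 1625 to 327166 ± 9072 HpM (1.24-fold, exact permutation test, adjusted p = 0.0222 over 7 regions). The windows around centromeres cover much of chromosomes I, III and VI, so the hotspots were also divided into regions that share no hotspot. In NormHpM, the 644 hotspots near centromeres of the other chromosomes still rose, from 190253 ± 2172 to 233336 ± 849 (1.23-fold, exact permutation test, adjusted p = 0.0185), beside 1.76-fold on chromosomes I, III and VI.

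Hotspots towards the ends of the chromosomes other than I, III and VI lost signal. Hotspots 20 to 100 kb from the ends of the other chromosomes, 410 in number, fell from 73367 ± 3732 to 41910 ± 904 NormHpM (0.571-fold, exact permutation test, adjusted p = 0.0185). A count over the last 100 kb of all chromosomes, those of I, III and VI included, gave rises of 1.11-fold in NormHpM and 1.12-fold in HpM (exact permutation test, adjusted p = 0.0185 and 0.0222). The 34 hotspots in the last 20 kb of the other chromosomes stood at 0.852-fold, which did not pass (exact permutation test, adjusted p = 0.0635). The last 20 kb of all chromosomes rose 1.14-fold in NormHpM (exact permutation test, adjusted p = 0.0476) and stood at 1.32-fold in HpM, which did not pass (adjusted p = 0.0635 by the same exact test), with overlap on both scales. On chromosome XII the 58 hotspots between centromere and rDNA fell to 0.496 of their *sae2*Δ level in NormHpM and the 141 to the right of the rDNA to 0.554. In HpM, which counts all reads of the region, the part between centromere and rDNA stood at 0.864-fold with overlapping replicates (14194 ± 845 to 12257 ± 1177, exact permutation test, adjusted p = 0.0370) and the part right of it at 0.748-fold (adjusted p = 0.0222 by the same exact test). The 1806 hotspots elsewhere fell to 0.910 in NormHpM (exact permutation test, adjusted p = 0.0185 for each of the 3 groups of hotspots).

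Counting in 50 kb bins outward from each centromere gave the same gradient at finer scale. By edgeR's quasi-likelihood test with nuclear reads as library size, 174 of 242 bins passed an adjusted p of 0.05, 79 upward (32.6%) and 95 downward (39.3%), 71.9% in all. Counting only the reads in hotspots, 203 of 239 bins passed (84.9%), 70 upward (29.3%) and 133 downward (55.6%). On the 12 chromosomes other than I, III, VI and XII, 21 of the 24 bins within 50 kb of a centromere rose and none fell by nuclear reads, with a median log2 ratio of 0.36. Counting only the reads in hotspots, 15 of these 24 rose and 4 fell, with a median of 0.36 again. The next 24 bins, at 50 to 100 kb, held 12 that rose and 4 that fell by nuclear reads (median 0.12), and 12 and 7 by reads in hotspots (median 0.16). The counts that follow are by nuclear reads. At 100 to 200 kb the medians were -0.02, with about as many bins up as down. Beyond that the balance turned: 22 of 37 bins at 200 to 300 kb fell (median -0.15), as did 20 of 30 at 300 to 400 kb (median -0.22) and 24 of 47 further out (median -0.21). With reads in hotspots as library size the outermost class had a median of -0.68, and 37 of its 46 bins fell. The size of the distal loss thus depended on how background was handled, while the sign of the class median did not. Single bins did turn, some of them called as rises by nuclear reads. Both bins beside the centromere of IV went from 0.29 to -0.34 and from 0.40 to -0.21 (edgeR adjusted p by nuclear reads 0.0423 and 0.00528). On chromosome XII the bin centred 275 kb from the centromere went from 0.45 to -0.76 (edgeR adjusted p by nuclear reads 0.0179). Among bins not called by nuclear reads, that at 473 kb on VII went from 0.25 to -0.74, and that at 429 kb on VIII from 0.15 to -0.36. On I, III and VI, 15 of 16 bins rose and none fell, with a median of 0.48.

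**Figure D2:**
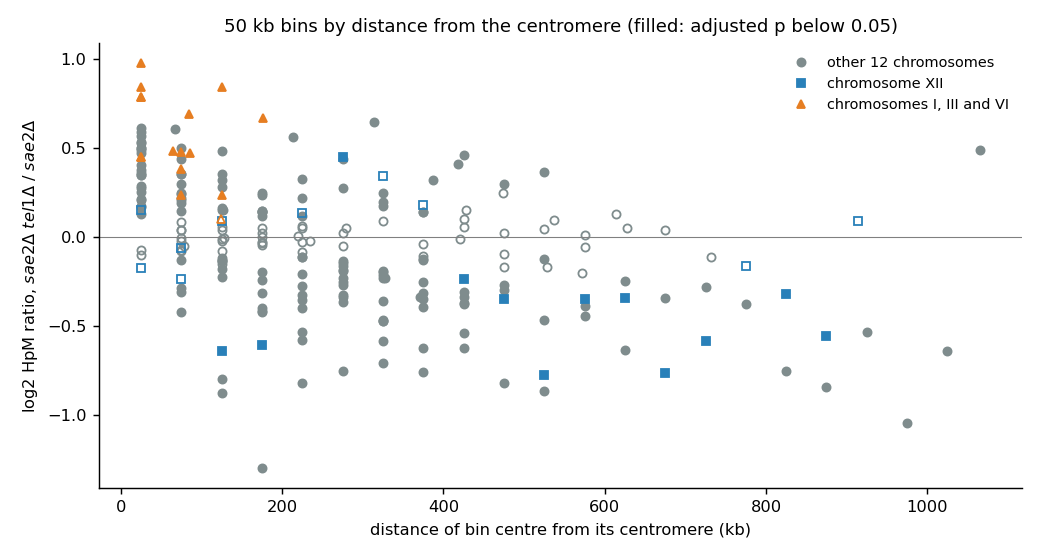
Log2 ratio, without Tel1 over with Tel1, in each 50 kb bin (reads per bin, scaled by nuclear reads) against distance from the centromere, with chromosomes I, III and VI, chromosome XII and the other chromosomes marked apart and filled symbols for an adjusted p below 0.05. Bins of the other chromosomes go from a median of 0.36 within 50 kb of the centromere to -0.21 beyond 400 kb, while those of I, III and VI lie between 0.10 and 0.98.

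The bin that rose most was chromosome III 69105-119104, beside the centromere, which holds the leu2::hisG hotspots. It carried 5490, 5498, 5722, 6222 and 5800 HpM in *sae2*Δ and 12299, 11272, 10957 and 10826 HpM in *sae2*Δ *tel1*Δ, a log2 ratio of 0.98 (SE 0.05, edgeR adjusted p = 2.23e-16). All *sae2*Δ *tel1*Δ replicates were above the highest *sae2*Δ replicate. The next highest bins were III 219105-269104 and III 119105-169104 (0.84 each), I 151712-201711 and VI 148785-198784 (0.79 each). The bin that fell most, II 38205-88204, includes *TEL1* itself, which lies at II 51019-59382. It went from 3252, 3449, 3212, 3126 and 3230 HpM to 981, 1347, 1438 and 1531 HpM, a log2 ratio of -1.30 (SE 0.10, edgeR adjusted p = 1.76e-12) and of -3.31 when counted in hotspots alone. The drop thus reached beyond the deleted gene, since the hotspots on both sides of it were nearly lost, as given below. The other lowest bins were IV 1399749-1449748 (-1.05), IV 299749-349748 (-0.88), XIV 79120-129119 (-0.87) and IV 1299749-1349748 (-0.84), none of them next to a deleted gene.

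Of the 3331 hotspots, 2352 passed edgeR's test (adjusted p under 0.05) with nuclear reads as library size (70.6%), 475 upward (14.3%) and 1877 downward (56.3%). With reads in hotspots as library size 2280 passed (68.4%), 935 upward (28.1%) and 1345 downward (40.4%). No hotspot was called in opposite directions by the scalings: all 475 rises by nuclear reads were among the 935, and all 1345 falls by hotspot reads were among the 1877. Replicate HpM did not overlap at 334 rising (10%) and 1563 falling (46.9%) hotspots. The maps stayed alike in outline, with NormHpM correlating at r = 0.911 across the 3331 hotspots.

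Hotspot by hotspot, the shares varied widely between regions. On chromosome III, 79 of 84 hotspots rose and 2 fell when scaled by hotspot reads, with a median log2 ratio of 0.96, and 73 rose even when scaled by nuclear reads. On chromosome I 50 of 67 rose, on VI 61 of 87 and on X 112 of 200. Near the other centromeres 311 of 644 rose and 119 fell when scaled by hotspot reads, but 172 rose and 225 fell when scaled by nuclear reads (median log2 ratio 0.24 and -0.04), so the balance turned with the scaling. On X, nuclear reads gave 66 up and 66 down. In contrast, only 16 of the 410 hotspots 20 to 100 kb from other chromosome ends rose and 306 fell, and right of the rDNA on chromosome XII 2 of 141 rose and 127 fell, again by hotspot reads, against 7 up and 358 down and 0 up and 136 down by nuclear reads. Chromosome IV (72 up, 224 down of 418) and chromosome XIV (17 up, 138 down of 231) lay on the same side.

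Hotspots are named below by size of change among those with at least 50 HpM on average, no overlap between replicates and 5 kb or more from a deleted gene, with at most 2 per chromosome and direction. This limit left out 8 rises as large as those named, 6 of them on chromosome III, and 20 falls, 10 of them on chromosome II. The hotspot with the largest rise under this rule lay within *TVS1* (YCR061W) at III 230187-230865, 226 bp from a strong hotspot in the intergenic region between *TAH1* and *TVS1*. It gave 66.8, 78.8, 82.7, 70.6 and 83.5 HpM in *sae2*Δ and 676, 503, 470 and 599 HpM in *sae2*Δ *tel1*Δ. The weakest *sae2*Δ *tel1*Δ replicate was thus several times the strongest *sae2*Δ replicate, and the means of 76.5 ± 7.41 (SD, n = 5) and 562 ± 93.5 (SD, n = 4) differed 7.35-fold (log2 2.88, SE 0.12, edgeR adjusted p = 4.89e-18). The strong hotspot beside it, III 228295-229960, rose only 1.42-fold. The other rise named on chromosome III had a like setting: within *ARE1*, a sterol acyltransferase gene, III 217486-217690 lay 536 bp from a strong hotspot and went from 31.4, 42.5, 44.3, 34.8 and 32.6 HpM to 104, 128, 108 and 102 HpM (2.98-fold, log2 1.56, SE 0.13, edgeR adjusted p = 1.23e-11).

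The other 8 of the 10 named rises lay on chromosomes V, VI, VIII, X and XV, and their means rose 2.06-fold to 2.76-fold. In *PIH1*, which encodes an Hsp90 cofactor, VIII 177015-177259 gave 27.8 to 43.9 HpM in *sae2*Δ and 78.7 to 100 HpM in *sae2*Δ *tel1*Δ. Between *SOD2*, the mitochondrial superoxide dismutase gene, and *TDA3*, VIII 123718-123929 rose from 38.2 ± 2.96 to 104 ± 12.8 HpM. On chromosome VI, the hotspot between *FAR7* and *GCN20*, whose product acts with the kinase Gcn2, gave 112, 155, 138, 160 and 121 HpM in *sae2*Δ and 318, 387, 375 and 257 HpM in *sae2*Δ *tel1*Δ (VI 162132-162439, 2.44-fold). In each of these the ranges stood apart, and VI 191404-191798, beside the lipid kinase gene *FAB1*, behaved alike, rising from 306 ± 42.1 to 713 ± 109 HpM (2.33-fold). Of the remaining rises, XV 220496-220927 beside *ARG1*, the argininosuccinate synthetase gene, went from 176 ± 20.1 to 405 ± 34.5 HpM. The hotspots beside *RNR2*, which encodes a ribonucleotide reductase subunit (X 393655-393957), between *RPA12* and *CCT5*, which encode an RNA polymerase I and a chaperonin subunit (X 555653-555858), and beside *IES6*, a gene of the INO80 remodeller (V 70215-70403), rose 2.15-fold, 2.11-fold and 2.06-fold. All 8 had an edgeR adjusted p of at most 3.76e-08, and 6 of the 10 named rises lay within 1 kb of a strong hotspot, as did 143 (4.29%) of all 3331 hotspots. The 10 were picked by size of rise, and the hotspots include regions called without Tel1. These choices can favour weak hotspots that rise, and the difference between the shares was not tested.

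The largest falls under the rule lay around *TEL1*. Between the glycosylation gene *ALG3* and YBL081W, II 71103-71610 gave 578, 821, 623, 609 and 740 HpM in *sae2*Δ and 42.9, 48.5, 49.9 and 56.1 HpM in *sae2*Δ *tel1*Δ. This strong hotspot, 11.7 kb from *TEL1*, was nearly lost in all 4 replicates (674 ± 103 to 49.4 ± 5.42 HpM, log2 -3.78, SE 0.14, edgeR adjusted p = 2.49e-19). On the other side of the gene and 5.52 kb from it, between *ROX3*, which encodes a Mediator subunit, and the ribosomal protein gene *RPL32*, II 45042-45499 fell from 247 ± 21.1 to 19.9 ± 3.17 HpM (log2 -3.66, SE 0.14, edgeR adjusted p = 4.99e-19). Both lay close to the replaced gene, and the effect of the marker inserted there and that of the loss of Tel1 cannot be told apart at these hotspots.

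The other 8 of the 10 named falls lay far from any deleted gene, on chromosomes IV, VII, XII and XVI, 172 kb or more from their centromeres. Between *RAD2*, an excision-repair nuclease gene, and the nicotinic acid transporter gene *TNA1*, VII 1011725-1012433 gave 665, 639, 479, 453 and 787 HpM in *sae2*Δ and 86.1, 87.7, 77.5 and 86.6 HpM in *sae2*Δ *tel1*Δ (log2 -2.84, SE 0.15, edgeR adjusted p = 3.24e-16). Its neighbour VII 1011195-1011520 fell with it, from 233 ± 35.2 to 53.3 ± 2.31 HpM. In *MIM2*, a gene for mitochondrial outer membrane import, XII 341005-341813 fell from 821, 963, 745, 842 and 976 HpM to 172, 154, 125 and 163 HpM (log2 -2.50, SE 0.13, edgeR adjusted p = 3.16e-16). The replicates of these hotspots were separated by wide gaps. Between *LRS4*, a monopolin gene, and *DOT1*, the histone H3 lysine methyltransferase gene, IV 1342041-1342442 went from 504 ± 66.3 to 101 ± 7.38 HpM, and beside the peroxisomal gene *PEX29*, IV 1416876-1417325 went from 458 ± 107 to 80.7 ± 4.22 HpM. Beside *LEA1*, which encodes a U2 snRNP protein, XVI 150281-150576 fell from 377 ± 53.8 to 63.2 ± 7.74 HpM. The last of the 10, in *GEP5* (XII 322920-323376) and between *MMT2* and *GRE1* (XVI 128146-128495), had log2 ratios of -2.54 and -2.24.

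**Figure D3:**
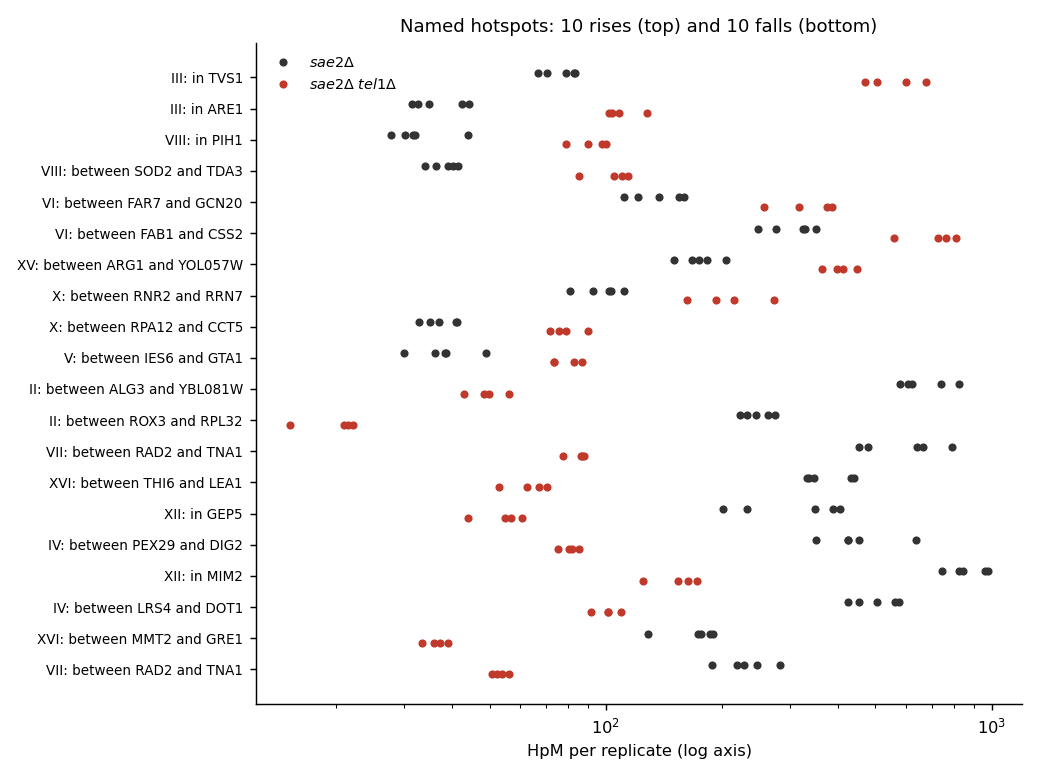
HpM in every replicate (log axis; *sae2*Δ and *sae2*Δ *tel1*Δ marked apart) for the 10 named rises and the 10 named falls, the largest by log2 ratio with at most 2 per chromosome and direction. At none of the 20 do the replicates of the genotypes overlap, which the choice of these hotspots required; the top rise, in *TVS1*, goes from 76.5 to 562 HpM on average and the top fall, beside *ALG3*, from 674 to 49.4 HpM.

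At the loci of chromosome III that are most often studied, hotspots rose by unlike amounts. At HIS4::LEU2, an insert that creates a pair of strong break sites, III 65176-66153 gave 2853, 3473, 3246, 3871 and 3841 HpM in *sae2*Δ and 6352, 5213, 4219 and 4806 HpM in *sae2*Δ *tel1*Δ (1.49-fold, edgeR adjusted p = 0.000118). The second site, III 67494-68830, rose from 1837 ± 116 to 3408 ± 374 HpM (1.86-fold), and the weak hotspot between them, III 66828-67114, from 24.7 ± 3.81 to 78.7 ± 39.3 HpM (3.19-fold). The factor was thus larger at the weak middle hotspot than at the strong sites that flank it, but its *sae2*Δ *tel1*Δ replicates spread from 44.9 to 131 HpM and the difference between the factors was not tested. This middle hotspot was under the level of 50 HpM set for naming by size of change. At leu2::hisG, III 95054-96491 rose from 1937 ± 305 to 4662 ± 489 HpM (2.41-fold), beside its neighbours III 93814-94617 (1.82-fold) and III 97137-97579 (1.78-fold). The strong hotspot at *ARE1* (III 213902-216949) rose 1.24-fold, with overlapping replicates and an edgeR adjusted p of 0.0172. The intervals of these loci lie in the modified build, in which gene positions on chromosome III are approximate.

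Of the 5 hotspots that were strongest in *sae2*Δ *ndt80*Δ, 3 fell when scaled by nuclear reads. In the alcohol acetyltransferase gene *ATF2*, VII 848086-849606 fell from 4359 ± 461 to 2795 ± 411 HpM (edgeR adjusted p = 1.69e-05). The hotspot between the septin gene *SPR3* and the sterol synthesis gene *ERG25* (VII 609141-610833) and that between *AAC1*, a mitochondrial ADP/ATP carrier gene, and the iron uptake gene *FET3* (XIII 387678-389157) fell to 0.749 and 0.759 of their *sae2*Δ level in HpM, but neither passed when scaled by reads in hotspots. Those between *SND1* and the chaperonin gene *CCT6* (IV 834860-837038) and between YMR265C and *RSN1* (XIII 797432-798971) stood at 1.09-fold and 0.924-fold and did not pass in HpM. The first of these did pass when scaled by reads in hotspots (log2 0.40, edgeR adjusted p = 0.000148), so its call rests on the scaling. The second turned and passed with TMM (log2 0.28, edgeR adjusted p = 0.0304) and with DESeq2 (log2 0.28, DESeq2 adjusted p = 0.00471).

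Changes within 10 kb were followed around the 334 strong hotspots, the top 10% by mean HpM in *sae2*Δ *ndt80*Δ. The weaker hotspots had been called with or without Tel1, so some could enter only because they were high without it. Strength was ranked with Tel1 present. Both choices can favour a rise of weak hotspots, and how far they did was not tested. Strong hotspots together held 533359 ± 12118 NormHpM in *sae2*Δ and 554778 ± 15342 in *sae2*Δ *tel1*Δ (1.04-fold), which did not pass (exact permutation test, adjusted p = 0.139). The 143 weaker hotspots within 1 kb of a strong one rose: they held 21475, 20785, 20867, 20939 and 20430 NormHpM in *sae2*Δ and 32885, 30968, 31759 and 31026 NormHpM in *sae2*Δ *tel1*Δ. The ranges were far apart, and the means rose 1.51-fold (exact permutation test, adjusted p = 0.0370 over 7 classes). The 266 hotspots at 1 to 2.5 kb rose 1.12-fold (exact permutation test, adjusted p = 0.0370). At 2.5 to 5, 5 to 10 and 10 to 20 kb the ratios were 1.05, 0.975 and 0.980 and did not pass. The 967 hotspots over 20 kb from any strong hotspot fell 0.758-fold, from 146432 ± 4401 to 111015 ± 4182 NormHpM (exact permutation test, adjusted p = 0.0370). In HpM the class within 1 kb also rose (1.23-fold, exact permutation test, adjusted p = 0.0212), the strong hotspots fell (0.845-fold, adjusted p = 0.0363 by the same test) and the class at 1 to 2.5 kb stood at 0.923-fold without passing, so only the nearest class and that over 20 kb kept both direction and call on either scale.

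**Figure D4:**
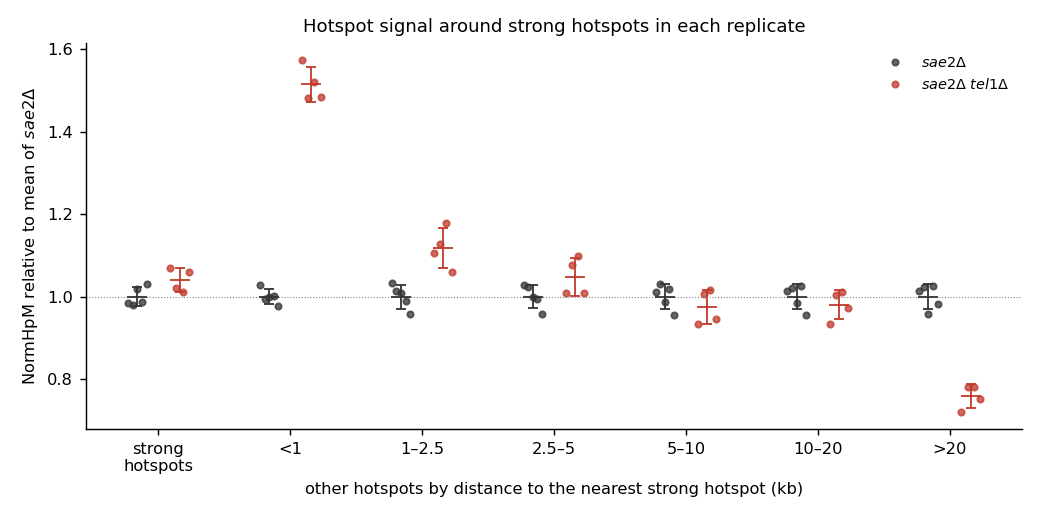
NormHpM of strong hotspots and of weaker hotspots by distance to the nearest strong hotspot (kb), in every replicate relative to the *sae2*Δ mean, with points for replicates and bars for the mean and SD. The class under 1 kb lies highest, at a mean ratio of 1.51, and the class over 20 kb lowest, at 0.758.

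Setting near neighbours against their own strong hotspots gives a measure that does not depend on the library size used for scaling. Pair by pair it also leaves out changes shared by both. Pooled shares do not fully leave these out, since regions with unlike shares can change by unlike amounts. Both forms rest on the same choice of hotspots, which can favour neighbours that are high without Tel1. The reads of the 143 neighbours came to 11.2%, 10.9%, 10.6%, 10.8% and 10.2% of those of their 123 strong hotspots in *sae2*Δ and to 14.3%, 14.4%, 14.99% and 14.1% in *sae2*Δ *tel1*Δ (exact permutation test, two-sided, p = 0.0159, adjusted p = 0.0635 over 4 distance classes). The ranges did not overlap, the ratio of the means was 1.34, and it was 1.34 again with background subtracted, from 10.4% to 14.0%. At 1 to 2.5 kb the shares were 12.4% and 13.8% (adjusted p = 0.0952 by the same exact test), and at greater distance they did not pass either. Taken one by one, 123 of the 143 neighbours were higher relative to their strong hotspot, 64 of them without overlap between replicates (44.8%), and 20 were lower, 2 of them without overlap (1.4%). The median log2 change was 0.45. Of these neighbours 41 lay within genes, 65 between genes in tandem, 32 in divergent and 5 in convergent intergenic regions. Reads just outside the limits of strong hotspots, within 200 bp, went from 55.9 ± 4.36 to 82.6 ± 25.7 HpM per kb, but divided by each replicate's background they were 3.58 ± 1.53 and 3.09 ± 1.67 times it and overlapped (exact permutation test, adjusted p = 0.571).

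Most of the difference between the maps was nevertheless regional. Over the 1663 hotspots above the median strength, the SD of the log2 ratio was 0.798, while that of the ratio smoothed over 100 kb was 0.707 and that of the remainder 0.391. The replicates' own error was 0.121 on the same log2 scale, so the remainder was larger than the replicate error. The smoothed ratio carried 76.0% of the variance. Log2 ratios of pairs of hotspots under 1 kb apart correlated at 0.790 (179 pairs), those of pairs 10 to 20 kb apart at 0.757, 50 to 100 kb apart at 0.573 and 100 to 200 kb apart at 0.315. After removal of the smoothed ratio the correlation lay between -0.16 and 0.00 at every distance. The smoothed ratio at a hotspot came from its neighbours in the 100 kb window, with the hotspot itself left out. Subtracting it can by itself lower the correlation of remainders within the window. Those values therefore cannot show whether change was shared at short distance. The pairs share libraries and hotspots, and all these values are descriptions. Along chromosomes the smoothed log2 ratio stayed between 0.80 and 1.40 on III, whereas it ran from -2.14 to 0.84 on VII and from -2.48 to 0.73 on XII.

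Strong hotspots also changed shape. Their width, the distance between the positions below which 10% and 90% of the reads fell, had a median of 304.5, 306.5, 309, 300.5 and 296 bp in the *sae2*Δ replicates and 393, 330, 324.5 and 345 bp in the *sae2*Δ *tel1*Δ replicates. All 4 *sae2*Δ *tel1*Δ replicates were wider than any *sae2*Δ replicate, replicate 1 by the most, and the difference of the means was 44.8 bp (303 ± 5.13 against 348 ± 31.1 bp, exact permutation test, adjusted p = 0.0238 over 3 measures). Without *sae2*Δ *tel1*Δ replicate 1 the difference was 29.9 bp, with an adjusted p of 0.0536 that an exact test of 5 against 3 replicates cannot better here. Background took 0.796% to 2.01% of the reads in strong hotspots in *sae2*Δ and 2.30% to 4.23% in *sae2*Δ *tel1*Δ, and with background subtracted the widths were 299.7 ± 5.95 and 338.1 ± 31.5 bp, still without overlap. Of the 334 strong hotspots, 316 were wider and 18 narrower in the mean of *sae2*Δ *tel1*Δ.

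The strands separated more across strong hotspots. Strand asymmetry was taken as the mean log2 excess of Crick reads left of the hotspot's midpoint and of Watson reads right of it, so that it is above 0 where ends that face out of the hotspot are the more frequent. Its median was 0.21, 0.19, 0.04, 0.11 and 0.13 in *sae2*Δ and 0.62, 0.27, 0.33 and 0.37 in *sae2*Δ *tel1*Δ. The ranges did not overlap, although *sae2*Δ *tel1*Δ replicate 2 was close to the highest *sae2*Δ replicate (0.135 ± 0.0683 against 0.396 ± 0.154, exact permutation test, adjusted p = 0.0238). Without *sae2*Δ *tel1*Δ replicate 1 the difference of 0.26 became 0.19 (adjusted p = 0.0536 by the same exact test). The measure was higher at 301 of the 334 hotspots and lower at 33, and it lay above without overlap at 131 (39.2%) and below at 5 (1.5%). It was larger in longer hotspots: in the longest 112 it went from 0.263 to 0.649, and in the shortest 111 from 0.042 to 0.199. At 200 to 600 bp from the midpoint, outward-facing reads outnumbered inward-facing ones 1.37, 1.38, 1.03, 1.08 and 1.27 times in *sae2*Δ and 2.14, 1.37, 1.70 and 1.88 times in *sae2*Δ *tel1*Δ, so replicate 2 lay within the *sae2*Δ range there. The share of reads at the most cut base, 6.51% and 6.32%, did not pass (exact permutation test, adjusted p = 0.762).

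**Figure D5:**
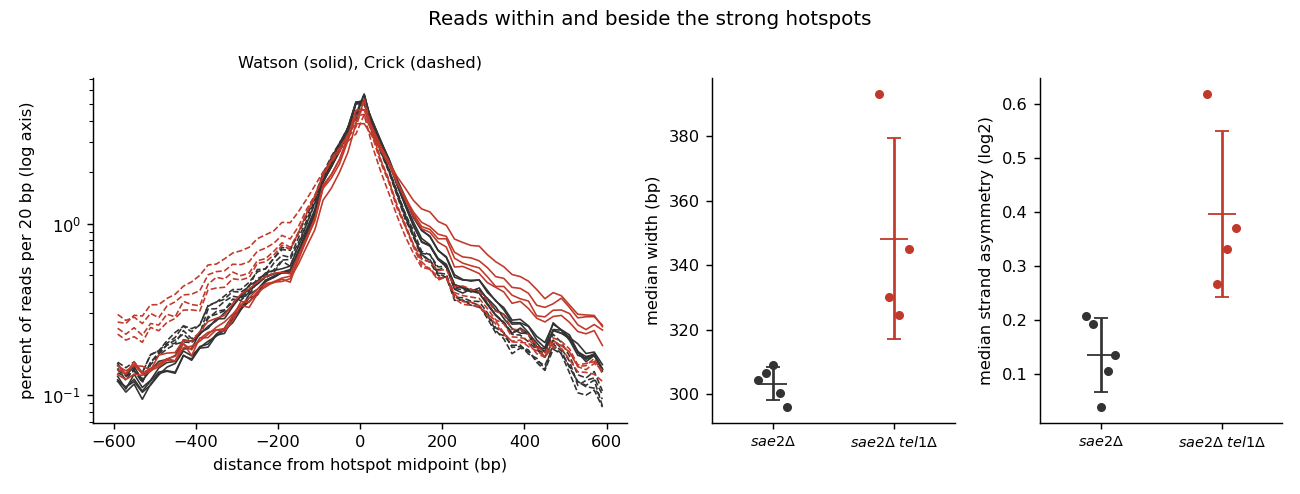
Percent of reads per 20 bp by strand around midpoints of the 334 strong hotspots (left, log axis, Watson solid and Crick dashed, 1 line per replicate), and their median width in bp and median strand asymmetry (log2) in each replicate, with the mean and SD (right). Widths of *sae2*Δ *tel1*Δ replicates lie between 324.5 and 393 bp, above the 296 to 309 bp of *sae2*Δ, and asymmetry lies between 0.27 and 0.62, above 0.04 to 0.21.

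How reads divide among 4 segments of equal length was also tested within each hotspot. By edgeR's diffSpliceDGE, 866 of the 3266 hotspots tested (26.5%) passed an adjusted p of 0.05, and in 707 of the 858 of these with reads in all 4 segments the outer pair gained, while in 151 they lost. Among strong hotspots 275 of 334 passed, 249 of them with gain in the outer pair. Strong hotspots have the most reads and so the most precise shares. Without *sae2*Δ *tel1*Δ replicate 1 the number passing was 540.

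The place of a hotspot relative to genes also marked the change. In NormHpM, hotspots between divergent genes, the sites with a promoter on each side, fell from 471665 ± 4110 to 434220 ± 3383 (0.921-fold, exact permutation test, adjusted p = 0.0212). Hotspots between convergent genes and within genes rose 1.33-fold and 1.19-fold (exact permutation test, adjusted p = 0.0212 each), and those between tandem genes stood at 1.02-fold without passing. The class within genes went from 133086 to 158206 NormHpM. It includes III 95054-96491 at the leu2::hisG insert (2650 to 8009) and the strong hotspot III 213902-216949 at *ARE1* (7083 to 10916). Change by place was not separated from change by chromosome or region. Hotspot by hotspot, 609 of 1276 divergent ones fell and 272 rose by hotspot reads, whereas 140 of 314 within genes rose and 92 fell. In HpM the divergent class fell 0.757-fold and the tandem class 0.841-fold (exact permutation test, adjusted p = 0.0317 each), and the other classes, at 1.08-fold and 0.969-fold, did not pass. By strength, in 10 classes of equal number, none passed in NormHpM (ratios from 0.942 to 1.12). In HpM 9 of the 10 fell (ratios from 0.784 to 0.886, exact permutation test, adjusted p of 0.0227 or 0.0353), and the weakest class, at 0.961-fold, did not pass.

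Whether the effect of Tel1 loss was the same with and without Ndt80 was tested as an interaction in edgeR over all 18 replicates of the 4 genotypes. It passed in 43 of 242 bins (17.8%): the effect was higher with Ndt80 in 9 (3.72%) and lower in 34 (14%). All 9 bins with the higher effect lay within 50 kb of a centromere, on 7 chromosomes, and all 34 with the lower effect lay 100 kb or more away, at a median of 275 kb. Among the bins named above, III 69105-119104 had an interaction of 0.44 on the log2 scale and VI 148785-198784 of 0.48, while IV 299749-349748, XIV 79120-129119 and IV 1299749-1349748 had -0.44, -0.39 and -0.36. In *ndt80*Δ cells these 3 bins on IV and XIV had log2 ratios of -0.43, -0.48 and -0.48, so they were lower without Tel1 there too. In the *ndt80*Δ genotypes some libraries were taken as a separate time-course series, and in the compared genotypes none. The sample labels give 6 h for every library and do not name such a series. What sets these libraries apart was not tested. Counting only reads in hotspots, 85 of 239 bins passed (35.6%), 32 with the higher effect (13.4%) and 53 with the lower (22.2%). With those *ndt80*Δ replicates left out 180 bins passed by nuclear reads, 115 with the higher effect and 65 with the lower. All 43 were among them with the same sign. The count and the balance of directions thus depend on those replicates. Hotspots took 37.8% to 85.5% of the reads in replicates of *sae2*Δ *ndt80*Δ and 46.3% to 87.3% in those of *sae2*Δ *ndt80*Δ *tel1*Δ. The part of this spread in the interaction was not tested.

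For single hotspots the interaction passed at 3 of 3331 (0.0901%), with 590 at an unadjusted p under 0.05. They lay between *APC4*, which encodes a subunit of the anaphase-promoting complex, and *VBA4* (IV 687898-688103), between *OYE2* and YHR180W (VIII 464688-464923), and between *SPR2* and *AIM41* (XV 746453-746727), and were chosen after their values were seen. Their log2 ratios were -0.66, -2.06 and -1.24 with Ndt80 and 1.14, 0.38 and 2.22 without it. With the same *ndt80*Δ replicates left out 904 hotspots passed, so this count too depends on them. With reads in hotspots as library size 88 hotspots passed (2.64%), 13 with a higher effect (0.39%) and 75 with a lower one (2.25%), among them the rises at VI 162132-162439 and VI 191404-191798 and the falls at II 71103-71610 and IV 1342041-1342442.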

How the data were processed

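The authors deposited, for each library, the counts of reads whose 5′ end lay at each base of each strand, mapped by Bowtie2 through their TermMapper pipeline to SacCer3H4L2, an R64-based genome with the HIS4::LEU2 and leu2::hisG inserts. The tool versions, the mapping-quality filter and the treatment of duplicate reads are not given in the sources used here. The counts were used as deposited, without calibration. Libraries 7B and 7C of *sae2*Δ and 1A and 1B of *sae2*Δ *tel1*Δ were summed as 1 replicate each. Their chi-square per degree of freedom over hotspots was 2.00 and 1.18, against 3.01 to 22.9 for other pairs of libraries of 1 genotype. No column of another series was used (0 found). Gene names came from RefSeq R64 positions, shifted on chromosome III for the inserts. No genome sequence was used.

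Reads on chromosomes 1 to 16 outside XII 451640-467844 were the library size. Hotspots were called in each *ndt80*Δ genotype apart, and the regions called in either were joined. A region had at least 25 bp and at least 25 reads. In it the mean over the libraries of that genotype, smoothed with a 201 bp Hann window, reached 0.193 HpM. Gaps under 200 bp were merged. Analyses used Python 3.11.15 (numpy 2.4.6, pandas 2.3.3, scipy 1.17.1, matplotlib 3.10.9) and R 4.3.3 with edgeR 4.0.16 (glmQLFTest, diffSpliceDGE; Benjamini-Hochberg over all features, threshold 0.05) and DESeq2 1.42.0 as an alternative. Single values per replicate were compared by exact two-sided permutation tests. On simulated counts for the comparison of *sae2*Δ *tel1*Δ with *sae2*Δ, the hotspot fit (3331 hotspots) recovered 14.5% of 1.25-fold, 89.6% of 1.5-fold and 100% of 2-fold changes. It called 2 of 3131 unchanged hotspots, and the fit of 242 bins recovered all 40 changes. The test of 4 segments within a hotspot (3258 hotspots) recovered 2.7% of 1.25-fold, 14.8% of 1.5-fold and 63.4% of 2-fold changes. The simulation gave the genotypes no difference in background and changed far fewer features than were called in the data.

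Hotspots named were, among those with adjusted p under 0.05, at least 50 HpM on average, replicates that did not overlap and 5 kb or more from a deleted gene, the 10 largest rises and 10 largest falls with at most 2 per chromosome and direction, plus the 5 strongest in *sae2*Δ *ndt80*Δ and the hotspots at YCR061W, *ARE1*, leu2::hisG and HIS4::LEU2. Bins named were the 5 highest and 5 lowest. The groups, regions, lists and tests were chosen with earlier results of these data known. Alternatives covered the scaling (TMM, DESeq2, reads in hotspots), hotspot limits, bin size, all 18 replicates in 1 model, replicate block, and each replicate left out.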

Additional observations from a re-analysis of the deposited data

Results flagged for a closer look

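In 10 of the 166 groups of replicates tested, 1 replicate stood further from the rest than Dixon's limit at the 95% level, which chance passes in about 1 in 20 groups. In *sae2*Δ *tel1*Δ replicate 1, chromosome IX held 27213 HpM against 29626 to 29728 in the others, the last 20 kb of chromosomes 17443 against 22365 to 23310, bin III 219105-269104 15748 against 12828 to 13049, the hotspot in *ATF2* (VII 848086-849606) 3409 against 2551 to 2643, the hotspot III 97137-97579 541 against 259 to 297, and that between *ROX3* and *RPL32* (II 45042-45499) 15.2 against 21.0 to 22.1. Replicate 1 was thus the one apart in 6 of the 10 cases. In *sae2*Δ *tel1*Δ replicate 3 the hotspot between *RAD2* and *TNA1* (VII 1011725-1012433) held 77.5 HpM against 86.1 to 87.7. In *sae2*Δ, chromosome IX held 30274 HpM in replicate 2 against 31332 to 31747, and replicate 5 held 43.9 HpM in *PIH1* (VIII 177015-177259) against 27.8 to 32.1 and 129 HpM between *MMT2* and *GRE1* (XVI 128146-128495) against 173 to 189.

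The effect of Tel1 loss differed with and without Ndt80, by edgeR's test of the interaction, in 43 bins of 50 kb and at 3 hotspots. Of the bins named in the report, this was so in III 69105-119104 (0.44 on the log2 scale), VI 148785-198784 (0.48), IV 299749-349748 (-0.44), XIV 79120-129119 (-0.39) and IV 1299749-1349748 (-0.36).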

How the results depend on the processing

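Of 711 values of 43 named hotspots and bins under 17 settings, 684 kept direction and call, 22 lost the call, 3 gained it and 2 turned: the hotspot XIII 797432-798971 had a log2 ratio of 0.28 with TMM and 0.28 with DESeq2. The number of hotspots called was 2352, 2222 to 2379 with 1 replicate left out, 1091 with all 18 replicates in 1 model and 1458 with that model and reads in hotspots as library size. TMM gave 1157 up and 1187 down and DESeq2 1168 up and 1166 down, against 475 and 1877. Replicate numbers were not shown to pair the samples (correlations of same-numbered replicates 0.171, 0.114 and 0.083), and with the replicate number as a block 2355 hotspots and 150 bins were called. Bins called were 174, 159 to 176 with 1 replicate left out, 90 at 100 kb, 394 at 20 kb and 89 with all 18 replicates. For the interaction, 43 bins (9 higher, 34 lower) became 85 (32 and 53) with reads in hotspots as library size. With replicates 3 to 5 of the *ndt80*Δ genotypes left out they became 180 (115 and 65), and 166 (96 and 70) with both changes. The 3 hotspots became 88 with reads in hotspots as library size and 904 with those replicates left out. The 12 chromosomes and 6 regions that passed in HpM became 0 to 13 and 0 to 6 with 1 replicate left out. They were 0 without *sae2*Δ *tel1*Δ replicate 2 or 3, where the adjusted p for regions stopped at 0.05, while the ratio at centromeres stayed between 1.22 and 1.25 and that of I, III and VI between 1.45 and 1.52. Classes around strong hotspots that passed were 7 in HpM, 3 in NormHpM and 3 as a share of reads in hotspots. On the latter scales strong hotspots turned to 1.04 and 1.03, the class at 1 to 2.5 kb to 1.12 and 1.12 and that at 2.5 to 5 kb to 1.05 and 1.06, and in NormHpM hotspots between tandem genes turned to 1.02 and those within genes to 1.19. The width difference was 29.9 to 52.7 bp and that of asymmetry 0.19 to 0.30 with 1 replicate left out. Hotspots with a changed share among their 4 segments were 866, 540 to 836 with 1 replicate left out and 2936 with limits extended by 200 bp. Beyond the settings' own construction, causes were not tested.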
